A study of Mus musculus with 2 samples.

Results

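The genes described here build the protein-folding machinery of the endoplasmic reticulum (ER) and its stress response, the unfolded protein response. They were chosen by name, as 52 symbols covering chaperones, folding enzymes, stress sensors, ER-associated degradation, the protein translocation channel, signal peptidase and oligosaccharyltransferase. Of these 52 genes, among 19057 genes named on the array, 51 had at least 1 probe that the platform annotation gives to that gene alone, and Dnajb11 had no named probe. RNA came from mouse hematopoietic stem and progenitor cells sorted as Flt3-low LSK cells, which lack lineage markers and carry Sca1 and c-Kit. The control sample is set against a sample of genotype CA/CA, from transgenic mice whose stem cells express a constitutively active IKK2, the kinase that switches on canonical NF-kB signalling. The promoter or Cre that drives the transgene, the genotype of the control animals beyond the word control, their ages and the number of mice per sample are not stated in the labels. Each genotype had 1 Illumina bead array, so no difference below was tested and none has a replicate error.

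Proteins that are secreted, or that sit in membranes, enter the ER through the Sec61 channel, lose their signal peptide, receive sugar chains and fold with the help of chaperones and disulphide isomerases. When unfolded protein accumulates, the sensors IRE1, ATF6 and PERK raise the output of chaperones and of the machinery that returns misfolded protein to the cytosol for destruction. In blood cells this response is best known from plasma cells, where Xbp1 prepares the ER for antibody secretion, and blood stem cells are known to make little protein and to be sensitive to its misfolding.

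Signals are the deposited normalized values in array units, from which the array background had not been subtracted. A probe was counted as above background at 92.00 units or more, which 37.0% of the 45281 probes reached on each array. A gene's signal is the mean over its probes that reached this floor on at least 1 array. Its difference is CA/CA minus control in log2(signal + 16), averaged over those probes, a scale that understates the change of dim genes. Of the sorted population's own markers, Kit stood at 969.6 units in control cells and 677 in CA/CA cells, with its 2 measured probes at log2 differences of -0.58 and 0.21 and thus no settled direction, Cd34 at 287 and 153, and Procr at 101 and 103, while Flt3, Cd48 and Hlf were below the floor on both arrays. Markers of other cells were present and differed between the samples. The B cell progenitor list, 10 measured genes of 15, summed to 10951 units in control cells and 1387 in CA/CA cells, and its members Pax5, Rag2 and Vpreb2 were below the floor on both arrays. The granulocyte and monocyte list, 13 of 13 measured, summed to 65635 and 37379, with 3 genes, Ltf, Ngp and Csf1r, above 0. The erythroid list, 11 of 13 measured, summed to 4114 and 15016, with Hba-a1 below 0 at 1036 and 939. The dendritic cell and macrophage list, 6 of 8 measured, summed to 904 and 3399. Its member Adgre1 reached the floor in the control only, and Itgax was below the floor on both arrays. The T and NK cell list summed to 4918 and 1958, of which Nkg7 made up 4190.3 and 1055, while 6 of its 8 measured genes were above 0. The mast cell and basophil list summed to 1189 and 1098, with Prss34 at 514 and 231 and the other 5 of 6 measured genes above 0. Megakaryocyte markers summed to 972 and 627, and endothelium and stroma to 909 and 456. The part of these cell type markers in the differences below was not tested, and in sorted bulk cells fewer cells of a type and less RNA per cell cannot be told apart.

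Some of the genes carry a promoter element of the unfolded protein response. Genes of that response were chosen by name, so the element's share among them is not independent of the choice. The ER stress response element (ERSE) is the classic sequence through which ATF6 and XBP1 act together with the factor NF-Y. It was searched as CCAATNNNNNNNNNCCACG on both strands, in RefSeq promoter windows of 300 bases that run from 250 bases before to 50 bases after the annotated start (mouse build GRCm38.p6). It occurred in 39 of all 32851 windows, or 0.119%, and in 9 of the 47 windows of the ER genes, or 19.1%. The shorter variant ERSE-II, ATTGGNCCACG, occurred in 0.0365% of all windows and in 2 of the 47, those of Herpud1 and Dnajb11. Its parts are common, the CCAAT box occurring in 37.4% of all windows and 70.2% of the ER gene windows, and CCACG in 32.8% and 76.6%. Both parts lie within every ERSE and ERSE-II counted. The related element UPRE, TGACGTGG, occurred in 0.676% of all windows and in 1 of the 47, that of Vcp. Windows were matched for 45 of the 52 genes, Rpn2 and Derl2 having more than 1, and not for Sec61a1, Ssr2, Hyou1, Derl1, Spcs3, Atf6 and Manf. The stretches below show the 9 ERSE promoters and that of Herpud1, read 5′ to 3′ on the gene's strand, because the element is the textbook link between ER stress and these genes. Capitals mark the fixed letters of the element, and Hsp90b1 is shown over its whole window because it holds 2 elements in opposite orientations.
Hspa5, chr2:34772005-34772063, plus strand: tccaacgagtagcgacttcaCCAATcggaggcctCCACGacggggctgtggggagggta
Calr, chr8:84847055-84847113, minus strand: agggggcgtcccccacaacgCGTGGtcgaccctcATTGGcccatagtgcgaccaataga
Creld2, chr15:88819500-88819558, plus strand: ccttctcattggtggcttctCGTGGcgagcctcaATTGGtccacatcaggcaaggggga
Dnajc3, chr14:118937807-118937865, plus strand: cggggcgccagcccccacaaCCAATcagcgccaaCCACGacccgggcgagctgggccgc
Pdia6, chr12:17266471-17266529, plus strand: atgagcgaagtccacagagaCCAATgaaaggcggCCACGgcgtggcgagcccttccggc
Syvn1, chr19:6046512-6046570, plus strand: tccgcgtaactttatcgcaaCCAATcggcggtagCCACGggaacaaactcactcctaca
Canx, chr11:50325780-50325838, minus strand: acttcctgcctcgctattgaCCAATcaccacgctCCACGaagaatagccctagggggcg
Derl3, chr10:75893222-75893280, plus strand: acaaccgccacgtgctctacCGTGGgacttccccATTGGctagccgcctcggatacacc
Herpud1, chr8:94386357-94386407, plus strand: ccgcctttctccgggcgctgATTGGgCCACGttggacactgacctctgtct
Hsp90b1, chr10:86705395-86705694, minus strand: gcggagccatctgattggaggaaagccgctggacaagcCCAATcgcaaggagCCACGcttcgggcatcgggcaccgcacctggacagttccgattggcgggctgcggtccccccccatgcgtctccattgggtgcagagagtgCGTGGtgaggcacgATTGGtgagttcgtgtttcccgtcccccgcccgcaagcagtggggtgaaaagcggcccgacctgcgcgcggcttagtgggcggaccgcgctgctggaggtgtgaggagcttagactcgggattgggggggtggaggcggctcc

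**Figure D1:**
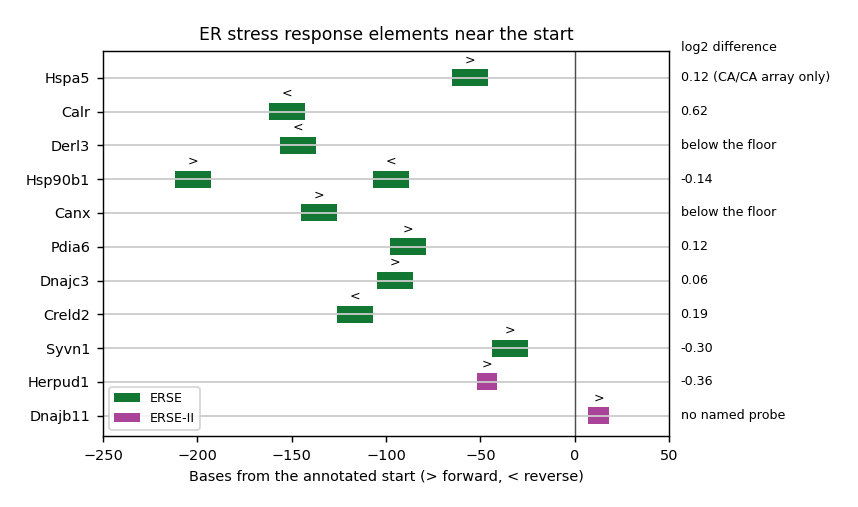
Position of each ERSE (green) and ERSE-II (purple) in the promoter windows of 11 ER genes, in bases from the annotated start, with the log2 difference of the gene at the right. The elements lie between 212 bases before the start (Hsp90b1) and 7 bases after it (Dnajb11), and the differences beside them lie on both sides of 0.

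A match to these letters is a description of the sequence and does not show that a factor was bound in these cells. Of the 9 genes with an ERSE, 6 were above the background floor on both arrays, with differences from -0.30 (Syvn1) to 0.62 (Calr) and a median of 0.09. The 4 above 0 were Calr, Creld2, Pdia6 and Dnajc3, and the 2 below 0 were Hsp90b1 and Syvn1. Hspa5 reached the floor on the CA/CA array only, which fixes its sign, and Canx and Derl3 on neither. Genes with the element therefore stood on both sides of 0, as did the whole set.

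As a set, the ER folding genes had almost the same signal in the CA/CA sample as in the control. Of the 51 genes with a probe, 42 were above the floor on both arrays, Hspa5 on the CA/CA array only, and 8 on neither. None of the 43 measured genes was at least 2-fold higher or lower, against 1.29% and 1.64% of all 10118 measured genes. At 1.5-fold the count was 1 higher, Calr, and 0 lower, against 4.02% and 5.65% of all genes. These shares are read as a description of 2 arrays, since a count of 0 or 1 among 43 genes lies near such backgrounds.

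The differences ran from -0.37 for Ppib to 0.62 for Calr, and of the 42 genes that reached the floor in both samples, 23 (54.8%) lay above 0 and 19 below, against 51.3% above 0 among all genes so measured. The median over the 43 was 0.03, and also 0.03 with Hspa5 set at its bound, against 0.01 over all measured genes. The median size of a difference, whatever its sign, was 0.14 for the ER genes and 0.17 for all measured genes. Where both arrays gave a signal above the floor, the central 95% of differences ran from -0.89 to 0.74 for all 8500 genes and from -0.36 to 0.56 for the 42 ER genes. The median of the set lay close to that of all genes, and no member lay outside the central 95% range of all genes. Few of 42 genes would lie outside that range by its share alone, so this absence does not set the ER genes apart. The sorted values of both arrays agree closely, as quantile normalization would leave them. The centre of all genes therefore cannot show a shift shared by the whole array.

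**Figure D2:**
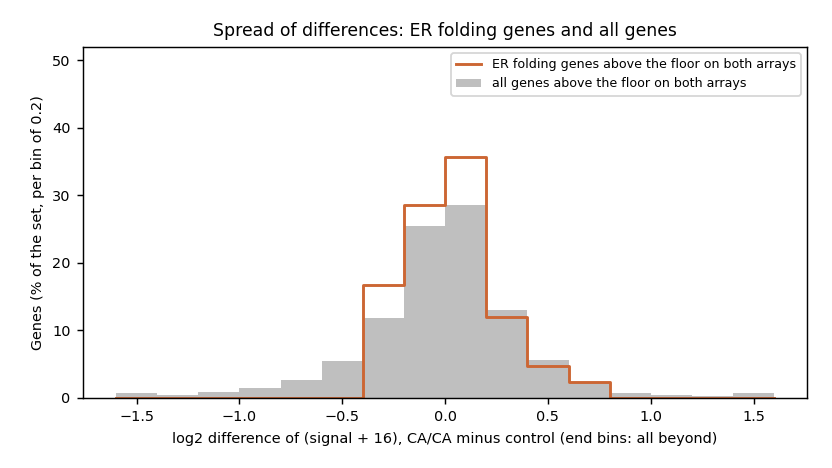
Distribution of log2 differences, CA/CA minus control, for the 42 ER folding genes (orange line) and all 8500 genes (grey bars) above the floor on both arrays, as a percentage of each set per bin of 0.2. Both peak next to 0, and the ER genes lie between -0.37 and 0.62 while the grey bars reach both ends of the axis.

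The one spread computed from the values used is the disagreement between probes of the same gene. Over 3861 genes with at least 2 probes above the floor, the SD of the probe differences was 0.24 (root mean square), and over the 18 ER genes with such probes it was 0.17. This measures disagreement between probes only and says nothing of variation between mice. Of the 18 ER genes, 9 had all probes above 0, 6 had all probes below 0, and 3, namely Edem2, Spcs1 and Stt3b, had probes on both sides. Of all 43 measured ER genes, 6 were higher and 6 lower by more than 0.24, and these 12 made up 27.9% of the set, against 36.4% of all measured genes. The 6 higher were Calr, Ddost, Spcs3, Sec63, Sdf2l1 and Pdia4. The 6 lower were Ppib, Herpud1, Ssr4, Pdia5, Syvn1 and Xbp1.

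**Figure D3:**
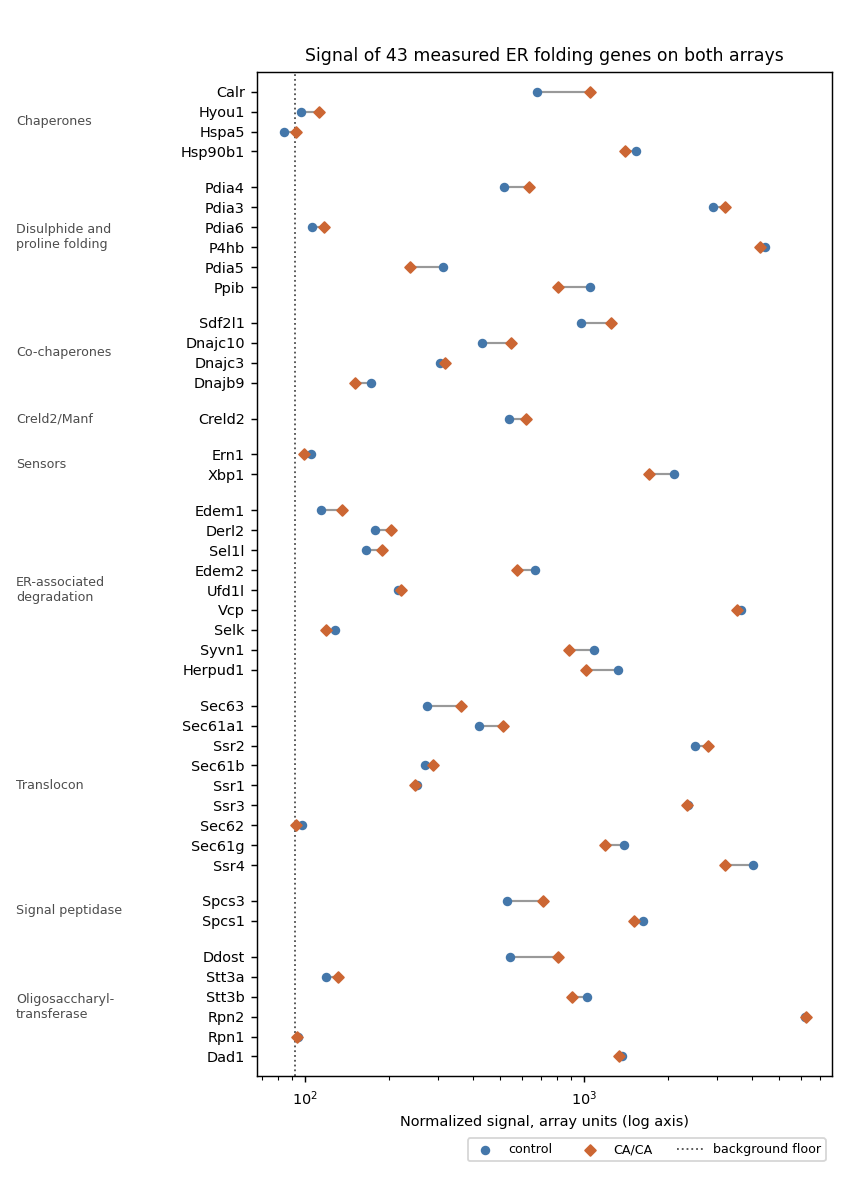
Normalized signal (array units, log axis) of the 43 measured ER folding genes in the control (blue circles) and the CA/CA sample (orange diamonds), grouped by role, with the background floor as a dotted line. The paired symbols lie close together in every role group, the widest gaps being those of Calr and Ddost.

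Among the chaperones, calreticulin was the gene that stood apart. Calr encodes a calcium-binding lectin that holds newly made glycoproteins while they fold, and its measured probe read 676 units in control cells and 1047 in CA/CA cells, a difference of 0.62 or 1.54-fold. Its other probe was below the floor on both arrays, at 83.96 and 79.83, so the value rests on 1 probe. Hsp90b1, the ER form of Hsp90 known as GRP94, was the brightest probe of the group and read 1537 and 1395, a difference of -0.14. Hsp90b1 carries a pair of ERSEs and Calr 1, and their differences had opposite signs.

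Other chaperone genes lay close to background. Hspa5 encodes BiP, the ER Hsp70 that holds unfolded chains and keeps the stress sensors silent. Its 1 probe read 83.79 units in control cells, below the floor, and 92.54 in CA/CA cells, barely above it, so these arrays give no usable level for BiP. Hyou1, an exchange factor that helps BiP cycle, read 96.39 and 112, a difference of 0.19. Canx, the membrane-bound relative of calreticulin, was below the floor on both arrays. Only Hsp90b1, Hyou1 and Calr of this group were above the floor on both arrays, so no group median is given.

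The folding enzymes that form disulphide bonds were split in direction. Pdia4 (ERp72) read 517 units in control cells and 633 in CA/CA cells, a difference of 0.29, the highest of the group. Pdia3, the isomerase ERp57 that works beside calreticulin, read 2902 and 3184, a difference of 0.13, well below the 0.62 of Calr itself. P4hb, the classic protein disulphide isomerase and the brightest probe of the group, read 4458 and 4271, a difference of -0.06. Pdia6 was dim, at 106 and 117, and had a difference of 0.12, with its 2 probes at 0.11 and 0.13. Of the 5 isomerase genes, Pdia3, Pdia4 and Pdia6 were thus above 0 and P4hb and Pdia5 below.

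Pdia5 and Ppib were the lower members of this group. Pdia5 stood at 312 in control cells and 237 in CA/CA cells, a difference of -0.31, with its 2 measured probes at -0.17 and -0.46. Ppib, cyclophilin B, which turns proline bonds during collagen and antibody folding, read 1054 and 809, a difference of -0.37 that was the lowest of all ER folding genes. Both probes of Ero1l, the oxidase now called Ero1a that recharges the isomerases, were below the floor on both arrays. The group median was 0.03 over 6 measured genes.

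The co-chaperones that steer BiP all lay within 1.5-fold. Sdf2l1, a stress-induced partner of ER co-chaperones, read 978 units in control cells and 1252 in CA/CA cells, a difference of 0.35. Dnajc10 (ERdj5), which reduces wrong disulphide bonds before degradation, stood at 432 and 547, and its 3 probes were higher by 0.16 to 0.36. Dnajc3 read 305 and 318, a difference of 0.06. Dnajb9 (ERdj4), which brings BiP to IRE1, was the member below 0, at 172 and 151, a difference of -0.17. In all, 3 of 4 measured genes were above 0, against 51.3% of all genes above the floor on both arrays, with a median of 0.15. The soluble stress protein Creld2 stood at 539.9 and 617, and its 2 probes differed by 0.10 and 0.29, while Manf, secreted under ER stress, was below the floor on both arrays.

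Neither measured gene of the sensor branch, Xbp1 or Ern1, read higher in CA/CA, and only Xbp1, by 1 probe, lay well above the floor. Xbp1, the transcription factor whose mRNA IRE1 splices under stress, read 2090.0 units in control cells and 1710 in CA/CA cells, a difference of -0.29. Spliced and unspliced forms were not told apart here. Ern1, which encodes IRE1, stood just above the floor at 105 and 99.28, a difference of -0.07, with its 2 measured probes at -0.06 and -0.08. Both probes of Atf6 were below the floor, the brightest at 87.54. Xbp1 is also a gene of the B lineage, and the B cell progenitor markers summed to 10951 units in control cells and 1387 in CA/CA cells. Their part in the Xbp1 difference was not tested. Of the plasma cell markers, 3 of 7 were measured, with summed signals of 2560.2 and 921 units. Mzb1 made up most of the control sum. Fkbp11, the 1 gene of the 3 above 0, read 457 and 571 and made up most of the CA/CA sum. Sdc1, Prdm1, Igj (now Jchain) and Tnfrsf17 were below the floor on both arrays.

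**Figure D4:**
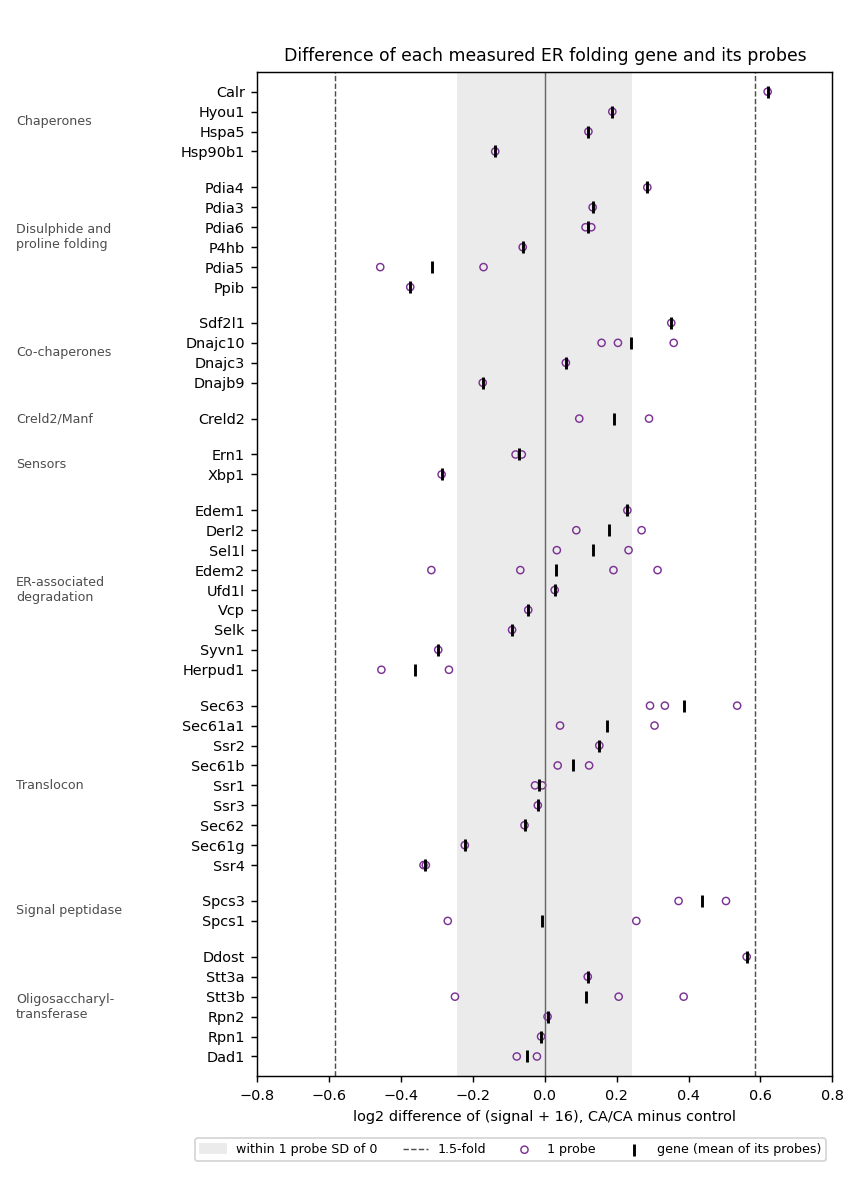
Difference in log2(signal + 16), CA/CA minus control, of the 43 measured ER folding genes (black bars) and of their 66 probes above the floor on at least 1 array (open circles), by role. Dashed lines mark 1.5-fold, which Calr alone passed, and the grey band marks 1 probe SD of 0.24 around 0. Hspa5 is drawn from a control value below the floor.

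Genes of ER-associated degradation lay around 0, with the retrotranslocation ligase and its scaffold lower in CA/CA. Herpud1, a stress-induced scaffold of that complex, stood at 1327 units in control cells and 1015 in CA/CA cells, a difference of -0.36, and both of its probes were lower, by -0.27 and -0.45. Syvn1, the ubiquitin ligase Hrd1, read 1086 and 881, a difference of -0.30. Sel1l, the partner that holds Hrd1 in place, did not share that sign, at 165 and 189, with its 2 measured probes at 0.03 and 0.23. Herpud1 carries the ERSE-II and Syvn1 an ERSE shown above.

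Edem1, Edem2 and Edem3 belong to a family that marks misfolded glycoproteins by trimming mannose. Edem1 read 114 units in control cells and 136 in CA/CA cells, a difference of 0.23, the highest of the degradation group. That value rests on 1 of its 3 probes, the others being below the floor on both arrays. The 4 probes of Edem2 ran from -0.32 to 0.31, so that its mean signal was lower in CA/CA, 668 against 577, while the mean of its probe differences was 0.03. No direction is given for Edem2. Edem3 was below the floor.

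Derl2, part of the exit channel, stood at 179 and 203 units, a difference of 0.18, and Derl1 and Derl3 were below the floor on both arrays. Vcp, the ATPase that pulls proteins out of the membrane, was the brightest probe of the degradation group and read 3641 and 3526, a difference of -0.05. Its cofactor Ufd1l (now Ufd1) was at 0.03 and the membrane selenoprotein gene Selk (now Selenok) at -0.09. The median over 9 measured degradation genes was 0.03. It ranged from -0.05 to 0.04 under the other settings and changed sign among them.

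All 9 translocation genes were measured, and their median was -0.02 with differences on both sides of 0. Sec63, a membrane J-domain protein that couples BiP to the channel, stood at 274 units in control cells and 362 in CA/CA cells, and its 3 probes were all higher, by 0.29 to 0.54. Among the channel subunits, Sec61a1 was at 0.17 with probes at 0.04 and 0.31, Sec61b at 0.08, and Sec61g, the smallest, at -0.22 with 1393 and 1192 units. The 3 subunits of 1 channel did not share a direction.

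The TRAP complex, encoded by Ssr1 to Ssr4, assists the channel with certain signal peptides. Ssr4 was its lower member, at 4029 units in control cells and 3193 in CA/CA cells, and its 2 probes agreed closely, at -0.33 and -0.34. Ssr2 read 2494 and 2772, a difference of 0.15, and Ssr1 and Ssr3 were both at -0.02. Sec62 was near the floor at 97.22 and 92.87.

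Of the signal peptidase genes, Spcs3, an accessory subunit of the enzyme, stood at 531 units in control cells and 709.7 in CA/CA cells, a difference of 0.44, and both probes were higher, by 0.37 and 0.50. Spcs1 stood at 1631 and 1508, but its 2 probes differed by -0.27 and 0.25, so its mean of -0.01 has no settled sign. Spcs2 was below the floor.

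Oligosaccharyltransferase transfers the sugar chain to the growing protein. Ddost, one of its non-catalytic subunits, read 541 units in control cells and 806 in CA/CA cells, a difference of 0.56, the second highest of all ER folding genes. Rpn2 had the brightest probe of all and read 6208 and 6241, a difference of 0.01. Dad1 was at -0.05 and Rpn1, close to the floor at 94.55 and 93.75, at -0.01. The catalytic subunit Stt3a was dim, at 119 and 131. Its paralogue Stt3b had probes from -0.25 to 0.39, and its mean signal was lower in CA/CA, 1028 against 907, although the mean of its probe differences was 0.11. The median over 6 genes was 0.06, and it ranged from -0.00 to 0.13 under the other settings. Besides Ddost, no subunit had a mean difference above the 0.12 of Stt3a.

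The 8 genes below the floor on both arrays, listed by their brightest probe, were Atf6 at 87.54 units, Spcs2 at 86.76, Derl3 at 86.23, Ero1l at 85.03, Manf at 84.08, Edem3 at 82.96, Canx at 82.95 and Derl1 at 82.36. The members just inside the floor were Hspa5 at 92.54, Rpn1 at 94.55 and Sec62 at 97.22. A probe in this range gives no level for its gene, and Canx, Hspa5 and Rpn1 are known as abundant genes of most cells.

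Other genes of the pathway, listed by role with earlier results of these data known, were also close to 0 with a few exceptions. Of 138 such genes, 129 had a probe and 110 were measured, with 65 above 0, 45 below 0 and a median of 0.07. At least 2-fold higher was 1, Asns, and at least 2-fold lower was 1, Mzb1. At 1.5-fold there were 3 in each direction, and 104 of 110 lay within it. Over all measured genes, 4.02% and 5.65% lay past 1.5-fold in these directions.

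In the PERK arm, which slows translation and raises ATF4 and CHOP, 2 of 10 measured genes were at least 1.5-fold higher and none lower. Asns, asparagine synthetase, a target of ATF4, stood at 186 units in control cells and 914 in CA/CA cells, a difference of 1.67, with its 3 probes between 0.50 and 2.64. Nfe2l2, the antioxidant factor NRF2 and a substrate of PERK, read 120.0 and 199.9, a difference of 0.67. Atf4, Ddit3 (CHOP) and Ppp1r15a, chosen after their values were seen, were at 0.29, 0.10 and -0.30. Chac1, a target of ATF4 and CHOP also chosen after its value was seen, reached the floor in CA/CA cells alone, at least 1.44-fold above the control. Trib3, of the same list, was at -0.09, with its 2 measured probes at -0.25 and 0.08. Ppp1r15b was at 0.15, and Sesn2 reached the floor in CA/CA cells alone, at least 1.01-fold above the control. Eif2ak3, the gene of PERK, read 96.36 units in control cells, just above the floor, and 91.97 in CA/CA cells, just below it. Its difference was -0.06, so these arrays show no clear change for Eif2ak3.

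Among other folding factors, Mzb1, an ER protein of B lineage cells that assists antibody assembly, read 1975 units in control cells and 266 in CA/CA cells, a difference of -2.82. It moved with the B cell progenitor markers, of which 10 of 10 measured were lower and 7 at least 2-fold lower; their part in the Mzb1 value was not tested. Tmx4, a membrane thioredoxin, stood at 1350.3 and 735, with both probes lower, at -0.73 and -0.93. Fkbp9, a proline isomerase, read 229 and 131, a difference of -0.73. Pdia2, an isomerase best known from pancreas, reached the floor in CA/CA cells alone, at least 1.62-fold above the control. Of the 25 measured genes of this list, 10 were above 0 and 15 below, with a median of -0.04.

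The list of the signal recognition particle and its receptor, which bring ribosomes to the channel, also held Sec11a, Sec11c, Sec61a2, Tram1 and Hm13, genes of the channel and of signal peptide cleavage. Of its 13 measured genes none passed 1.5-fold. By the mean of their probes 12 were above 0, against 51.3% of all genes above the floor on both arrays, with Hm13 the one below. The probes of Srprb ran from -0.05 to 0.26, those of Tram1 from -0.16 to 0.40 and the 7 of Hm13 from -1.23 to 0.12. Srprb, Tram1 and Hm13 thus have no settled sign. The list's median was 0.17 and lay between 0.14 and 0.34 under the other settings. The N-glycan enzymes had a median of 0.10 over 15 genes, the KDEL and cargo receptors with the COPII coat 0.15 over 19, and the other degradation factors 0.01 over 20, with no gene past 1.5-fold in these lists. The median of the N-glycan list reached -0.01 and that of the COPII list -0.03 under another setting. The site proteases and related membrane-bound factors had a median of 0.03 over 5 measured genes, and the other oligosaccharyltransferase subunits 0.09 over 3, the latter ranging from -0.19 to 0.11 across settings.

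**Figure D5:**
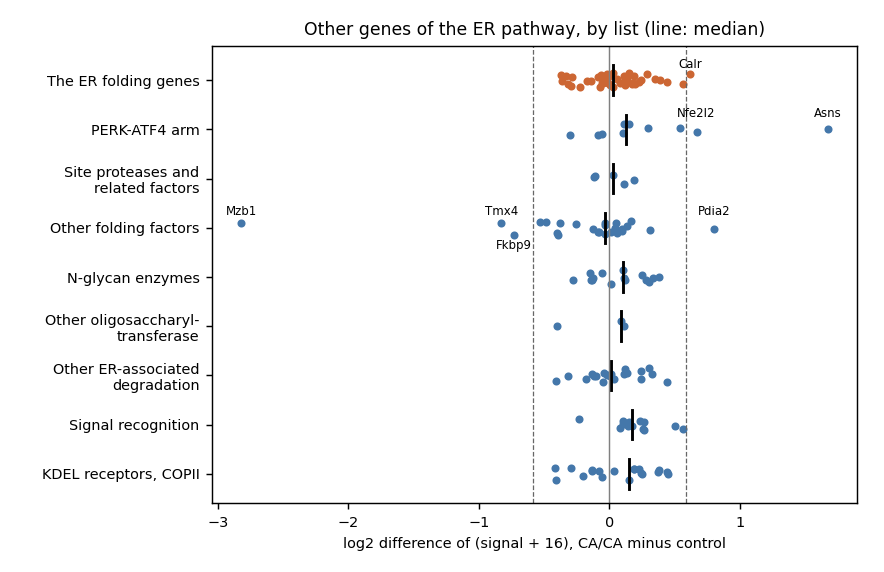
Difference in log2(signal + 16), CA/CA minus control, of the 43 measured ER folding genes (orange) and the measured genes of 8 other ER pathway lists (blue), with list medians as black lines and 1.5-fold as dashed lines. Genes at or past the dashed lines are named, and Mzb1 at -2.82 and Asns at 1.67 lie farthest from 0.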

How the data were processed

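The samples, 1 control and 1 CA/CA, were each measured on 1 Illumina bead array. BeadStudio is named in the submitters' processing notes; no source used here gives its version or normalization. The authors' deposited intensity values are linear, run from 71.85 to 17158.7 and have sorted columns that agree to within 0.0022 log2 units, as quantile normalization would leave them. A table of non-normalized signals was not used, because the headings of its value columns do not state which sample each holds.

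From these values the background mode was 81.72 units (centre of the narrowest range with 25% of the values), the SD below it 2.57, and the floor the mode plus 4 SD. Of the probes, 34885 had 1 gene symbol, 18 several and 10378 none, and only the first kind was named. Symbols were matched directly or through RefSeq synonyms. Where 1 array alone reached the floor, the fold is a lower bound, taken against the floor. Size rules of 2-fold and 1.5-fold stand in for a test, as 1 array per group allows none. Values are given for each member past 1.5-fold or above the floor on 1 array only, for the extremes and brightest probe of each role group, and for further members to complete the groups. Pathway genes are named mainly where past 1.5-fold, and in the PERK arm every measured gene is named. The members and lists were chosen with earlier results of these data known. The steps were tested on simulated data, with changes larger than any reported for the ER folding genes and only in genes well above background. That test does not cover small differences or genes near the floor. Python 3.11.15, numpy 2.4.6, pandas 2.3.3, matplotlib 3.10.9 and limma 3.58.1 in R 4.3.3 were used. The alternatives were normexp background correction, other offsets and floors, dim signals raised to the floor, 1 probe per gene (the brightest), centring and other size rules.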

Additional observations from a re-analysis of the deposited data

How the results depend on the processing

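No paired analysis was possible because each group has 1 array and no value comes from a test. No ER folding gene was at least 2-fold higher or lower under any of 9 alternatives, among them normexp background correction, offsets of 0 and 50, higher, lower or absent floors, the brightest probe and centring, nor by a 3-fold rule. A 1.5-fold rule gave 1 higher gene, Calr, and 0 lower; with normexp correction the genes past 1.5-fold were 2, Calr at 0.68 and Ddost at 0.63, against 9.76% of all measured genes higher and 11.8% lower past 1.5-fold under that correction. With all probes kept Calr was at 0.28, since its dim probe then entered the mean. Normexp correction moved the median difference from 0.03 to 0.076 and the median size of a difference from 0.14 to 0.24, and that of all measured genes from 0.17 to 0.32. Of 385 gene values under the alternatives, 378 stayed within 0.24 of the value reported. The others were, beside Calr, those of Edem1, Hspa5 and Hyou1 after normexp correction, at 0.49, 0.43 and 0.50, and of Edem2, Spcs1 and Stt3b by their brightest probe, at -0.32, -0.27 and -0.25. The sign was the same in all settings for 40 of 43 genes, the exceptions being Edem2, Ssr3 and Stt3b. This agreement is largely built in, since most settings can hardly reverse the sign of the 25 genes measured on 1 probe. Spcs1, whose probes lay on both sides of 0, also counts among the 40. Signal over background limits Hspa5, Rpn1, Sec62, Hyou1 and Ern1 most, and the number of arrays limits every value.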
